A study of Rattus norvegicus with 12 samples.

Results

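The genes described here encode thrombin, the protease-activated receptors (PARs) that thrombin and related proteases switch on, and a pair of serpins. They are F2 (prothrombin), F2r (PAR1), F2rl1 (PAR2), F2rl2 (PAR3), F2rl3 (PAR4), Serpine2 (protease nexin 1) and Serpinb8. A probe was taken as a member where the gene name printed on the array was one of these 7 names, which gave 9 of 30367 probes, for 7 of 26214 gene names. Of the 9 probes, 7 passed the filter on low signal, as did 23796 probes in all. The probe of F2 and the dimmer of the F2r probes did not pass. The members were chosen by their place in the thrombin system with their control versus acetamiprid (CvA) differences known, so their CvA values are given as a description with no test.

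The arrays held RNA of neuron-enriched cultures of the cerebellum of Sprague-Dawley rats taken at 1 day of age and kept for 16 days in vitro (DIV). The 6 ACE cultures received 1 µM acetamiprid (ACE), a neonicotinoid insecticide that acts on nicotinic acetylcholine receptors, from day 2 on. The 6 control cultures received the solvent, and dimethyl sulfoxide was at 0.001% in both groups. Each replicate number stood for 1 culture experiment, in which both cultures came from the same lot of cells of pooled neonates of a litter. A pair is the control and the ACE array of 1 experiment, and each pair lay on a slide of its own. The control arrays were all at place 1 of the slide and the ACE arrays all at place 3, so place and exposure cannot be told apart. The arrays measured the cultures as a whole, so fewer cells of a type and less RNA per cell cannot be told apart.

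PARs are G protein-coupled receptors that carry their own ligand. A protease cuts the extracellular end of the receptor, and the new end folds back and activates it. Thrombin cuts PAR1, PAR3 and PAR4, while trypsin-like proteases cut PAR2. PAR3 acts in part as a cofactor that presents thrombin to PAR4. The receptors signal through Gq, G12/13 and Gi proteins to phospholipase C and mitogen-activated protein kinases. In the nervous system thrombin changes the shape of astrocytes and draws back neurites, and protease nexin 1, which glial cells secrete, traps thrombin in a complex that the receptor Lrp1 clears. Serpinb8 is an intracellular serpin that inhibits furin and other proteases.

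Both F2r and Serpinb8 were measured by a bright and a dim probe whose values differed, so their sequences are shown with those of F2rl2 and F2rl1. Each line gives the last 30 bases of a probe of 60 bases, 5′ to 3′. Capitals mark the letters AATAAA or ATTAAA, the usual forms of the polyadenylation signal, searched on the printed strand only.
F2r bright probe: aatagcatatacaaaaagctactagcttag
F2r dim probe: aaatttcattgattgaaattgattgcaatg
Serpinb8 bright probe: tgcccacaagtgctttgtggaggttaatga
Serpinb8 dim probe: tatttagacaatttggaaaATTAAAcatgt
F2rl2 probe: tagatatctgggggaaatgtatatgcttgg
F2rl1 probe: tAATAAAcaaaatgtagttcacgttgctcc
The member probes of F2, F2rl3 and Serpine2, not shown, held neither motif. Of the last 30 bases of all 30367 probes, 8.68% held either motif. The array annotation (rn4) placed the F2r bright probe at chr2:25987859-25987918 and the F2r dim probe at chr2:25986221-25986280, both on the minus strand. The Serpinb8 bright probe was at chr13:13739649-13739708 and the dim probe at chr13:13741333-13741392, on the plus strand. In both genes the dim probe was the one further 3′, by 1638 bases in F2r and by 1684 bases in Serpinb8. G and C made up 38.3% of the F2r bright probe and 21.7% of the dim probe, against 45% and 35% for the Serpinb8 probes. The other probes were at chr3:76005425-76005484 (F2, minus strand), chr2:25886181-25886240 (F2rl1, minus strand), chr2:26078287-26078346 (F2rl2, plus strand) and chr9:79091862-79091921 (Serpine2, minus strand), while F2rl3 had no position. Which exon or untranslated region each probe lies in was not given in the sources used here.

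Levels below are log2 of the processed signal after quantile normalisation, and differences are ACE minus control on that log2 scale. The level of a probe depends on its sequence, so levels are compared between arrays and not between probes. Feature Extraction, the scanner software, judged for each spot whether it was well above background. The 75th percentile of the signal was 1803 to 4384 per array, and 75.4 to 91% of spots were well above background. The lowest log2 level that counted as well above background was 2.02 and 2.13 on the arrays of replicate 1, which were extracted with another software version, and 2.97 to 4.69 on the other 10 arrays. A low level in replicate 1 can therefore be well above background where a higher one in another replicate is not. In intensity before normalisation this limit was 11.7 and 13 in replicate 1, within the 9.84 to 18.1 of the other arrays.

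**Figure D1:**
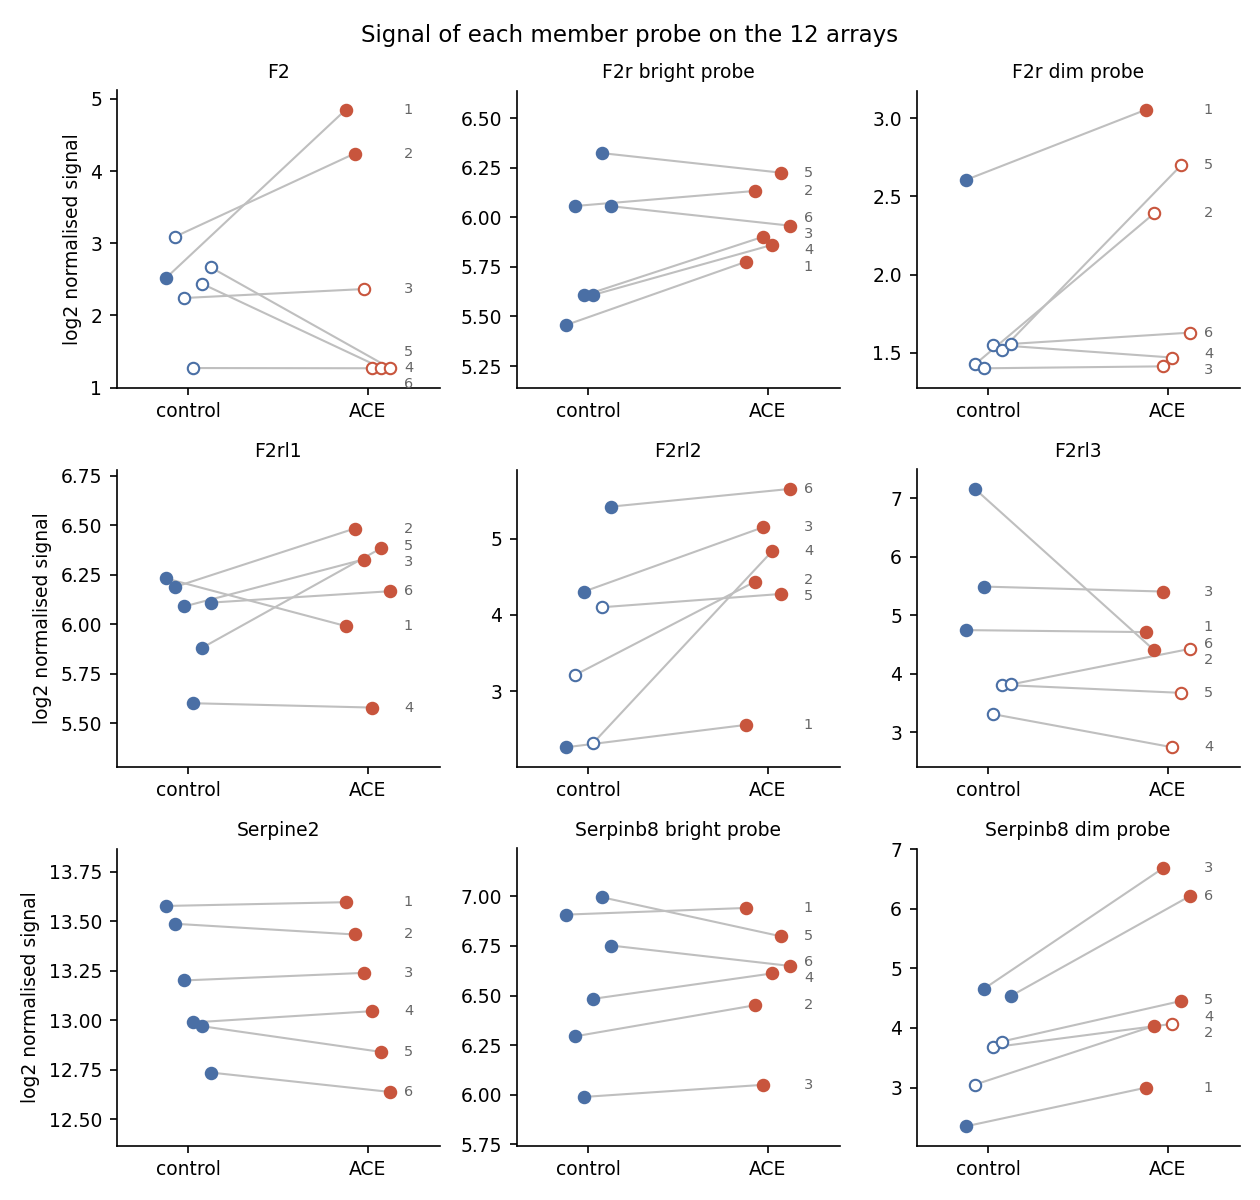
Log2 normalised signal (y axis) of the 9 probes in control and ACE cultures (x axis), with a line for each pair and the replicate number at the right. Filled points were well above background and hollow points were not, and the control and ACE values overlapped for all 9 probes.

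F2, which encodes the thrombin precursor made mainly by liver, was close to background. Control cultures ranged from 1.27 to 3.09 with a median of 2.48, and ACE cultures from 1.27 to 4.85 with a median of 1.82. The probe was well above background on 1 control and 2 ACE arrays, and 3 of 6 pairs were higher in ACE. The mean difference was 0.17 ± 0.57 (SE, n = 6 pairs), and -0.26 without replicate 1.

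F2r, the main thrombin receptor, was well above background on all 12 arrays with its bright probe. Control cultures ranged from 5.46 to 6.32 with a median of 5.83, and ACE cultures from 5.78 to 6.23 with a median of 5.93. The groups overlapped, and the ACE values lay within the control range. The mean difference was 0.12 ± 0.079 (SE, n = 6 pairs), with ACE higher in 4 of 6 pairs. It was 0.023 with a 75th percentile shift in place of quantile normalisation. With normexp, a model-based background correction run with an added offset of 50, it was 0.064. It was 0.019 in the pairs of replicates 4 to 6, which share a scan batch, and 0.28 as the mean over both probes. The dim F2r probe was well above background on both arrays of replicate 1 and on no other array, where its intensity was 21.2 and 27.5, against 2.12 to 5.0 elsewhere. Its mean difference was 0.43 ± 0.22 (SE), 0.28 without replicate 5 and 0.079 with normexp.

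F2rl1, the receptor for trypsin-like proteases, was also well above background on all 12 arrays. Control cultures ranged from 5.60 to 6.23 with a median of 6.10, and ACE cultures from 5.58 to 6.48 with a median of 6.25. Replicate 4 had the lowest value in both groups. The mean difference was 0.14 ± 0.11 (SE, n = 6 pairs), with ACE higher in 4 of 6 pairs. It was 0.060 with the 75th percentile shift, 0.071 with normexp, 0.066 without replicate 5 and 0.21 without replicate 1.

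F2rl2, the cofactor receptor PAR3, was higher in ACE in 6 of 6 pairs. Control cultures ranged from 2.27 to 5.42 with a median of 3.66, and ACE cultures from 2.56 to 5.65 with a median of 4.64. The groups overlapped widely, since both arrays of replicate 1 were low and both of replicate 6 were high. The pair differences for replicates 1 to 6 were 0.29, 1.22, 0.84, 2.52, 0.17 and 0.23. The mean was 0.88 ± 0.37 (SE), and the median was 0.57. Replicate 4 had by far the greatest difference, and the mean without it was 0.55. It was well above background on 6 of 6 ACE arrays and on 3 of 6 control arrays. The control arrays of replicates 2, 4 and 5 were not, so the differences of these pairs, the greatest among them, are set against a background value.

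F2rl3, the receptor PAR4 of platelets, was lower in ACE in 5 of 6 pairs. Control cultures ranged from 3.31 to 7.16 with a median of 4.28, and ACE cultures from 2.75 to 5.40 with a median of 4.41. The mean difference of -0.49 ± 0.48 (SE, n = 6 pairs) rested on replicate 2, whose pair differed by -2.76. Without replicate 2 the mean was -0.042. The probe was well above background on the arrays of replicates 1 to 3 and not on those of replicates 4 to 6, in both groups.

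Serpine2, the secreted thrombin inhibitor protease nexin 1, was well above background on all 12 arrays. Control cultures ranged from 12.74 to 13.58 with a median of 13.10, and ACE cultures from 12.64 to 13.60 with a median of 13.14. The mean difference was -0.028 ± 0.031 (SE, n = 6 pairs), with 3 pairs higher and 3 lower. Serpine2 had the narrowest pair differences of the 9 probes, between -0.13 and 0.056.

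Serpinb8, the intracellular serpin, gave different values with its probes. With the dim probe, control cultures ranged from 2.35 to 4.66 with a median of 3.72, and ACE cultures from 3.0 to 6.69 with a median of 4.26. The pair differences for replicates 1 to 6 were 0.65, 0.99, 2.03, 0.39, 0.68 and 1.68, and their mean was 1.07 ± 0.26 (SE). All 6 pairs were higher in ACE, and the groups overlapped. It was well above background on 5 of 6 ACE arrays and on 3 of 6 control arrays, with replicates 2, 4 and 5 of the control again not well above it. With the bright probe, well above background on all 12 arrays, control cultures ranged from 5.99 to 7.0 with a median of 6.62 and ACE cultures from 6.05 to 6.94 with a median of 6.63. Its mean difference was 0.013 ± 0.056 (SE), and no pair differed by more than 0.20 in either direction. The mean over both probes was 0.54.

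**Figure D2:**
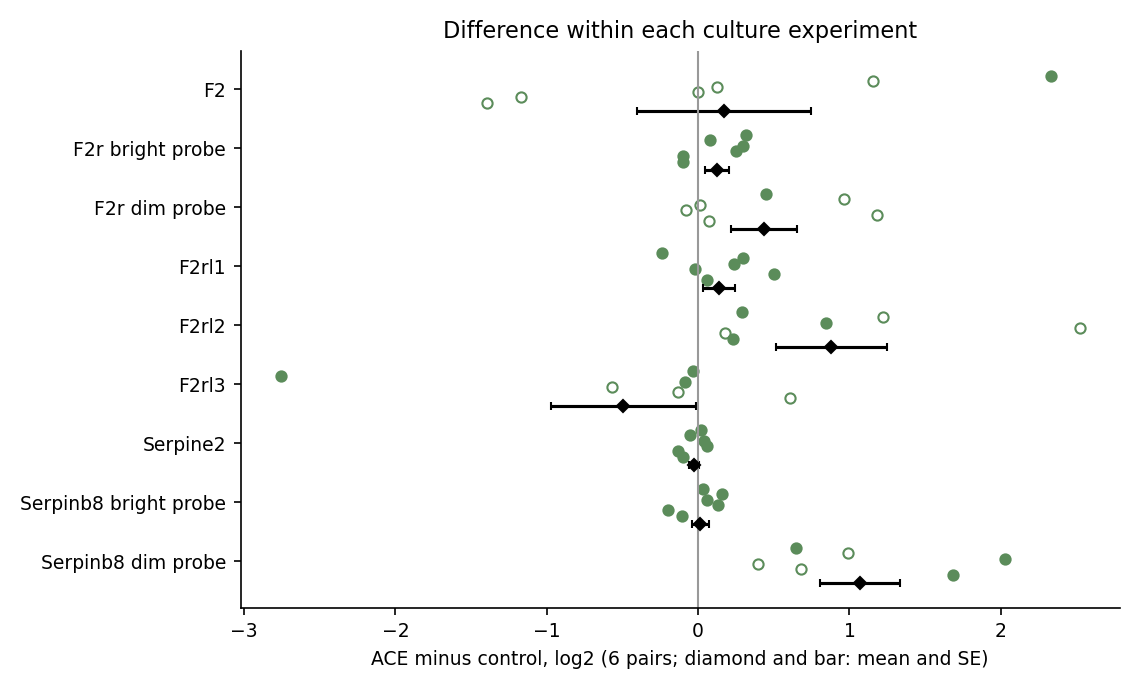
ACE minus control, in log2 units, for each of the 6 pairs and each member probe, with hollow points where a pair was not well above background on both arrays and a diamond with a bar for the mean and its SE. The F2rl2 probe and the dim Serpinb8 probe lie above 0 in 6 of 6 pairs, while the Serpine2 and bright Serpinb8 probes lie close to 0.

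The members' CvA values stood against the following background. No probe passed an adjusted p of 0.05 (limma, Benjamini-Hochberg over 23796 probes, 0%, lowest adjusted p 0.141), and 3956 probes (16.6%) had an unadjusted p under 0.05. Of these 1641 (6.9%) were higher and 2315 (9.73%) lower in ACE. The share of higher probes among them was 41.5%, against 19.1% with a 75th percentile shift and 51.5% with the deposited log2 values. ACE was higher in 6 of 6 pairs for 4.76% of the probes with 6 complete pairs, and the groups did not overlap for 0.0127%. A mean at least 1.5-fold higher in ACE was found for 0.664% of probes, among them F2rl2 and the dim Serpinb8 probe. That share was 3.65% of the probes that were not well above background on all 12 arrays, the class both belong to, and 0.129% of the others. A mean at least 1.5-fold lower in ACE was found for 1.06%, and no member probe that passed the filter was among them. Since these values were known when the members were chosen, nothing is read from the counts. The size of these differences depended on the processing. With normexp and its added offset of 50, F2rl2 differed by 0.14 and the dim Serpinb8 probe by 0.36. An added offset by itself shrinks log2 differences of dim spots, and the F2rl2 intensities were 3.94 to 35.6. The parts of the offset and of the background correction in these values cannot be told apart.

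**Figure D3:**
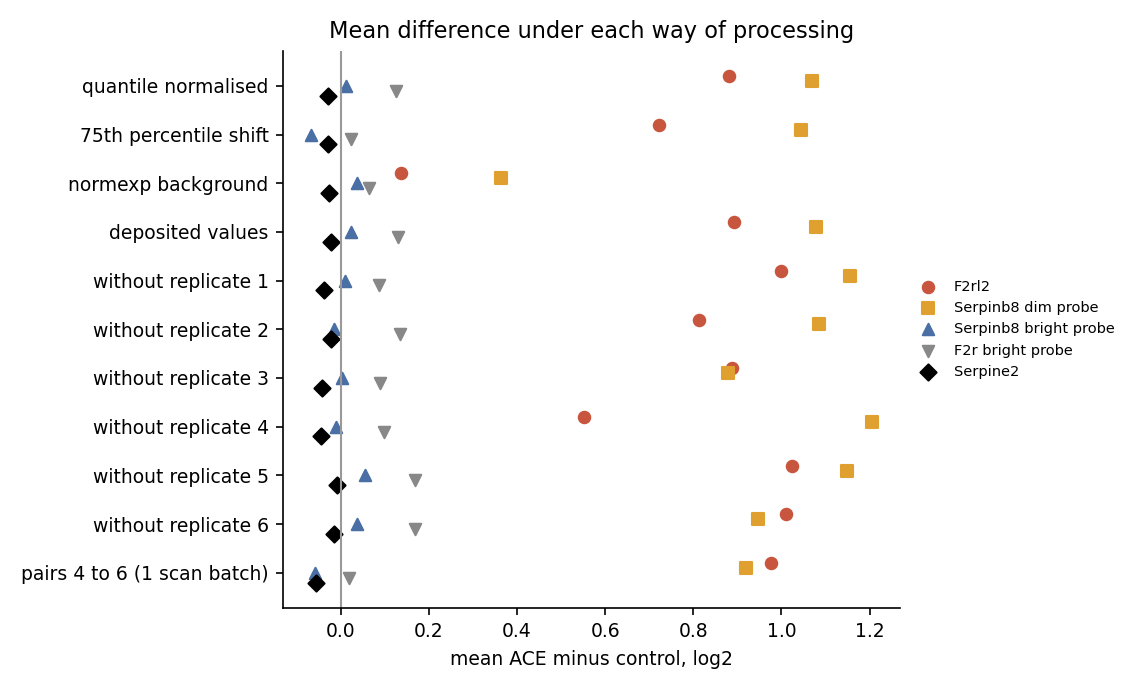
Mean ACE minus control (x axis, log2) of 5 member probes under each way of processing and without each replicate in turn (y axis). F2rl2 moves between 0.14 and 1.02 and the dim Serpinb8 probe between 0.36 and 1.21, while Serpine2 stays between -0.057 and -0.0078. The lowest value of F2rl2 and of the dim Serpinb8 probe is that with normexp and its added offset of 50.

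Levels were also compared between the 6 culture experiments. This comparison does not use the CvA contrast and was made with limma's F test, with exposure kept as a term and p adjusted over 23796 probes. It passed for 6 of the 7 member probes that were tested, a share close to that of all probes, of which 83.9% passed (88.2% of those well above background on all 12 arrays). Each experiment had a slide of its own, so experiment and slide cannot be told apart, nor can the software version and replicate 1. There were 4 scan batches, and replicates 4 to 6 shared one. A comparison among these 3 experiments was added after the data were seen, with 6 arrays in place of 12. In it 0 of 7 member probes passed the adjusted threshold, 3 had an unadjusted p under 0.05, and 8.68% of all probes passed (limma). With fewer arrays and so low a share, the 0 cannot show whether the differences are absent within a scan batch.

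The Serpine2 level kept the same order in both groups. The mean of the control and the ACE array was 13.59 in replicate 1, 13.46 in replicate 2, 13.22 in replicate 3, 13.02 in replicate 4, 12.91 in replicate 5 and 12.69 in replicate 6. No neighbours in this order overlapped, but the share of all probes without such overlap was not computed. The range was 1.87-fold (adjusted p = 0.000155, limma). In log2 it was 0.899, against a median range of 0.762 over all tested probes. Replicates 4 to 6 alone gave an adjusted p of 0.105 (limma). The distance between the control and the ACE array of an experiment was at most 0.13. The astrocyte markers, all 7 well above background on all 12 arrays, had a mean level of 13.28 to 14.34 in control and 13.2 to 14.27 in ACE cultures. By experiment this level was 14.3, 13.89, 14.16, 13.99, 13.46 and 13.24 for replicates 1 to 6, so it too was highest in replicate 1 and lowest in replicate 6. The 7 oligodendrocyte markers, also well above background on all arrays, had their highest level, 15.48, in replicate 6, and ranged over 14.68 to 15.44 in control and 14.71 to 15.53 in ACE cultures. Other lists also differed between the experiments. The endothelial and hepatocyte levels were lowest in replicate 1, at 4.83 and 6.70, and highest in replicate 6, at 5.20 and 7.36. The skeletal muscle level was highest in replicate 1, at 10.47, and lowest in replicate 4, at 6.64. Only 3 of 7 endothelial, 1 of 3 hepatocyte and 6 of 9 skeletal muscle markers were well above background on all 12 arrays. The log2 limit for well above background was lowest in replicate 1, and its part in the endothelial and hepatocyte levels was not tested. The part of these lists in the Serpine2 values was not tested.

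The bright Serpinb8 probe ranged 1.87-fold between experiments (adjusted p = 0.000851, limma), from 6.02 in replicate 3 to 6.93 in replicate 1. The dim Serpinb8 probe ran otherwise, with its lowest mean, 2.67, in replicate 1 and its highest, 5.67, in replicate 3 (adjusted p = 0.00296, limma). The range was 7.99-fold, or 4.37-fold without replicate 1. The lowest was then replicate 2, whose control array was not well above background, so this fold is set in part against a background value. The bright F2r probe ranged 1.58-fold, from 5.62 in replicate 1 to 6.28 in replicate 5 (adjusted p = 0.0135, limma). F2rl2 ranged 8.72-fold, from 2.41 in replicate 1 to 5.54 in replicate 6 (adjusted p = 0.0182, limma). Without replicate 1 the range was 3.88-fold and its adjusted p 0.109. The lowest was then replicate 4, whose control array was not well above background. Without replicate 6 the range was 4.98-fold with an adjusted p of 0.0637, and with the 75th percentile shift the adjusted p was 0.08. The control array of replicate 1, at 2.27, counted as well above background, while that of replicate 5, at 4.10, did not. Their intensities before normalisation were 15.5 and 11.9, so replicate 1 was the lower of these arrays only after normalisation. The part of normalisation and of the software version of replicate 1 in this range was not tested. F2rl1 ranged 1.68-fold (adjusted p = 0.0449, limma) with replicate 4 lowest at 5.59, and without replicate 4 its adjusted p was 0.704. F2rl3 did not pass (adjusted p = 0.0598, limma), and without replicate 2 its adjusted p was 0.00285. In the order of experiments, 4 of 5 neighbouring pairs overlapped for F2rl1, 3 of 5 for F2rl2 and the dim Serpinb8 probe, 2 of 5 for F2r, and 1 of 5 for F2rl3 and the bright Serpinb8 probe. These overlaps were not counted over all probes. In log2 the ranges of the bright F2r probe (0.659) and F2rl1 (0.745) lay below the median of 0.762 over all tested probes.

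**Figure D4:**
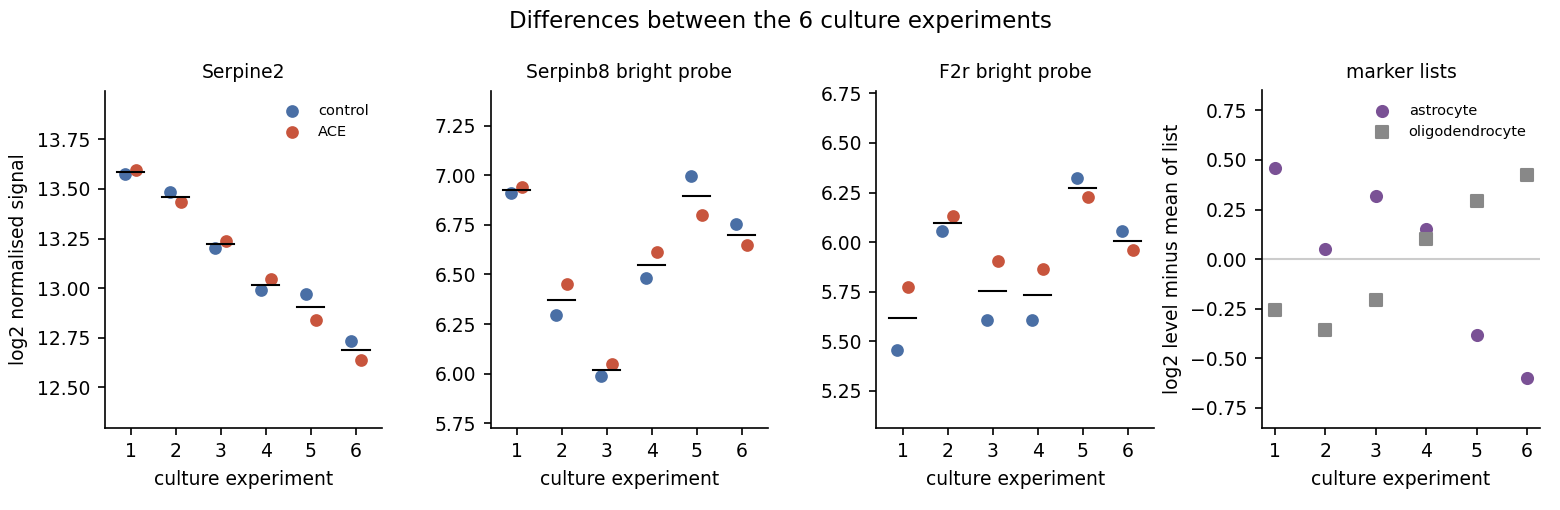
Log2 normalised signal of Serpine2 and the bright Serpinb8 and F2r probes in the 6 culture experiments (x axis, replicate number), with the control and the ACE array as points and their mean as a bar, and at the right the astrocyte and oligodendrocyte marker levels less the mean of each list (log2). Serpine2 is highest in replicate 1, at 13.59, and lowest in replicate 6, at 12.69, with both arrays of an experiment close together.

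The other genes of the system were taken from 5 lists of coagulation factors, proteases, serpins, signal transducers and genes that thrombin induces. Of 93 genes, 92 were on the array with 104 probes, and 81 probes were tested. None passed the adjusted threshold in CvA. An unadjusted p under 0.05 was found for 8 probes (9.88%, against 16.6% of all probes), 5 higher and 3 lower in ACE, and the median difference over the lists was 0.0095, against -0.0050 over all probes. The count of 8 was 13 without replicate 3 and 11 with the 75th percentile shift, so nothing is read from its distance to the background.

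Of the 16 coagulation probes tested, 1 was higher and 1 lower at an unadjusted p under 0.05, with a median of 0.019. F10, the protease that makes thrombin, was named after its value was seen. It was higher in 6 of 6 pairs, by 0.43 ± 0.063 (SE; limma unadjusted p = 0.000242, adjusted p = 0.141), and well above background on 11 of 12 arrays. Its control level was 5.26 ± 0.31 (SD, n = 6) and its ACE level 5.69 ± 0.39. The lower probe belonged to Vwf, the platelet adhesion factor, and differed by -0.11 ± 0.041 (SE), while the other probe of Vwf differed by 0.031 ± 0.033 (SE). F3, tissue factor, which starts coagulation, was bright on all arrays and differed by -0.020 ± 0.029 (SE).

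Of the 13 protease probes, 2 were higher and 2 lower at an unadjusted p under 0.05, with a median of 0.052. St14 (matriptase), which can cut PAR2, was higher in 6 of 6 pairs, by 0.21 ± 0.045 (SE; limma adjusted p = 0.147). Furin, a proprotein convertase and a target of Serpinb8, was higher in 6 of 6 pairs, by 0.13 ± 0.034 (SE; adjusted p = 0.196). Plg (plasminogen) was lower in 6 of 6 pairs, by -0.13 ± 0.029 (SE; adjusted p = 0.178), and Gzma (granzyme A) by -0.43 ± 0.13 (SE; adjusted p = 0.181). Furin and Gzma were named after their values were seen. Plat, tissue plasminogen activator, which Serpine2 inhibits, differed by -0.0026 ± 0.018 (SE).

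None of the 15 probes of other serpins and Lrp1 reached an unadjusted p of 0.05, and their median was -0.0018. Lrp1, the clearance receptor, differed by -0.076 ± 0.064 (SE). Of the 29 probes for PAR signal transduction, 1 was higher at an unadjusted p under 0.05 and none lower, with a median of 0.0073. It was Grk5, a kinase that turns off G protein-coupled receptors, which was higher in 6 of 6 pairs by 0.13 ± 0.037 (SE; limma adjusted p = 0.198). Of the G protein genes, Gnaq differed by -0.018 ± 0.065, Gna12 by 0.027 ± 0.065 and Gna13 by 0.50 ± 0.36 (SE), the last with 5 of 6 pairs higher (adjusted p = 0.463, limma) and a mean of 0.14 without replicate 3. Of the 8 probes for genes induced by thrombin, 1 was higher, that of the chemokine gene Ccl2, by 0.24 ± 0.10 (SE; adjusted p = 0.271). The median of these 8 was 0.078.

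F2rl1, F2r and F2rl2 lie close together in the RefSeq gene order (GRCr8), with Atp5mc2l2 between F2rl1 and F2r, and Iqgap2 spans F2rl2. The Iqgap2 probes differed in CvA by -0.12 ± 0.14 and 0.17 ± 0.15 (SE; adjusted p = 0.632 and 0.534, limma). Sv2c, on the far side, differed by -0.23 ± 0.088 (SE; adjusted p = 0.242), lower in 5 of 6 pairs. Crhbp, on the near side, was also lower in 5 of 6 pairs, by -0.55 ± 0.25 (SE; adjusted p = 0.281), but its probe was well above background on 6 of 12 arrays only.

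Genes whose level ran most like each member over the 12 arrays were taken from 13609 probes that were well above background and had a value on all of them and whose gene name is a RefSeq symbol of a gene other than the members. For Serpine2 they were Ift172 (Pearson's r = 0.980), Stoml2 (0.979) and Mtmr11 (0.978). For the bright F2r probe they were Rab32 (0.967), Anln (0.939) and Ctnna2 (0.937), and for F2rl1 Srsf1 (0.889), Tmem106a (0.887) and Kntc1 (0.887). For F2rl2 they were Il17ra (0.956), Inip (0.944) and Atxn7 (0.927), and for F2rl3 Isyna1 (0.911), Tac4 (0.895) and Acrbp (0.893). For the bright Serpinb8 probe they were Sprr3 (0.961), Ncoa2 (0.956) and Sephs2 (0.951), and for F2 Tex101 (0.926), Krtap16-5 (0.876) and Csf1 (0.864). These correlations are descriptions over arrays that share experiments and slides. The F2 probe was well above background on 3 of 12 arrays, that of F2rl3 on 6 and that of F2rl2 on 9, so their likeness rests in part on background values.

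Markers of the labelled neurons and of other cells were found. The granule cell (6 of 6) and Purkinje cell (6 of 6) markers were well above background on all 12 arrays, as were the astrocyte, oligodendrocyte and microglia markers (7 of 7 each) and 4 of 5 pan-neuronal markers on the array. Platelets and endothelium carry PARs in blood and vessels. Of 4 platelet markers, 3 were well above background on all 12 arrays, while Ppbp was on 2 of 12 and did not pass the filter. Which cells these markers came from was not tested, so they do not show that platelets were present. Of 7 endothelial markers, 3 were well above background on all 12 arrays, with Tek on none. The endothelial level was 4.82 to 5.47 in control and 4.57 to 5.32 in ACE cultures. Of 3 hepatocyte markers 1 was well above background on all arrays, and Hbb of red blood cells on none. The skeletal muscle markers had a lower mean level in ACE in 5 of 6 pairs. The mean difference of -1.31 was -0.69 without replicate 2, whose pair differed by -4.43. The levels lay between 6.65 and 11.33 in control and between 6.57 and 10.01 in ACE cultures. The mean differences of the other 12 lists lay between -0.20 and 0.10. The lower end belonged to the endothelial list, whose mean was -0.064 without replicate 5 and -0.34 without replicate 4. The part of these markers in the members' values was not tested.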

How the data were processed

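Total RNA of 6 control and 6 ACE cultures was labelled with Cy3 and hybridised to 12 Agilent 1-colour arrays of 44254 spots. Per the file headers, the authors extracted the intensity of each spot with Feature Extraction 11.0.1.1 (replicate 1) or 11.5.1.1 (the other replicates), which subtracted the background and removed spatial trends. The authors also deposited log2 values, quantile normalised between arrays and centred on each probe's median. They correlated at 0.997 to 0.999 per array with the centred values of the main processing, and served as an alternative.

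Control spots were left out and spots with an outlier flag were set to missing (447 probe values). No spot was saturated. The log2 intensity was quantile normalised, spots of a probe were averaged, and probes above the 20th percentile of their array on at least 7 of 12 arrays with at least 4 complete pairs were tested. limma 3.58.1 in R 4.3.3 was fitted with the replicate number as a block, two-sided, and p was adjusted after Benjamini-Hochberg at 0.05. The study's methods state that an experiment used cells of 1 litter. Deviations from the group mean of arrays that shared a number correlated at 0.449 to 0.912, against -0.439 to 0.390 for other pairs. The number of arrays limits the precision. The fits were also run on simulated data whose noise was capped below that of the noisiest probes, so that run does not cover such probes.

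The members and lists were chosen with earlier results of these data known. Named genes were all probes of the members; the 3 genes with the highest correlation with each member's brightest probe; and, per pathway list, the genes with the largest mean rise and fall among probes well above background on all 12 arrays with 6 of 6 pairs in 1 direction (St14, Plg and Grk5 met this). F3, F10, Vwf, Plat, Furin, Gzma, Lrp1, Ccl2, Gnaq, Gna12, Gna13, Iqgap2, Sv2c and Crhbp were named outside this rule, after their values were seen. A marker level is the mean log2 level of the listed genes, each by its brightest probe. Gene names are those of the array; all 7 members matched RefSeq. Alternatives were a 75th percentile shift, normexp background correction (offset 50), the deposited values, no filter, stricter probes, other blocks, pairs of the scan batch that holds 3 pairs, and leaving out each replicate. The nicotine and imidacloprid cultures were not analysed here.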

Additional observations from a re-analysis of the deposited data

Results flagged for a closer look

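Each group of 6 arrays was searched for a highest or lowest array that lay far from the rest, in 24 groups of which chance flags about 5%, and 1 was found. The dim F2r probe had a level of 2.61 in control replicate 1, while the other control arrays lay between 1.4 and 1.56. The ACE array of replicate 1 was also high, at 3.05. The arrays of replicate 1 were extracted with another version of the scanner software than the other 10, and its part in this value was not tested.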

How the results depend on the processing

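The replicate block changed the CvA counts most. Without it 81 probes had an unadjusted p under 0.05 instead of 3956, and 1 of the pathway probes instead of 8. With the replicate as a random block 5 probes passed the adjusted threshold instead of 0. Leaving out each replicate in turn gave 0 adjusted calls each time, 2810 to 4161 probes with an unadjusted p under 0.05, and 7 to 13 pathway probes. The exact signed-rank test gave 2755 probes and 6 pathway probes. The dim Serpinb8 probe fell from 1.07 to 0.36 with normexp and its added offset of 50, and the bright Serpinb8 value was 0.54 as a mean over both probes. Among the other alternatives the member differences moved by less than the spread between pairs. The sign of F2 differed from the main one in 3 of 13 alternatives, and that of the bright Serpinb8 probe in 4 of 15. Between experiments, replicates 4 to 6 alone, an alternative added after the data were seen, with 6 arrays in place of 12, gave 2050 probes past the adjusted threshold instead of 19963, and 0 member probes instead of 6. F2rl1 passed under 5 of 12 alternatives, F2rl2 under 7 of 11 and F2rl3 under 3 of 11, while the bright F2r probe, Serpine2 and both Serpinb8 probes passed under all but this one. Over the 6 experiments, the control and ACE levels of the tested members correlated at 0.574 to 0.981, as a description. The adjusted p of F2rl1 was 0.08, 0.0635, 0.704 and 0.0532 without replicates 2, 3, 4 and 6, that of F2rl2 0.109 and 0.0637 without replicates 1 and 6, and that of F2rl3 0.00285 and 0.047 without replicates 2 and 6 (limma). The signal of F2, F2rl2, F2rl3 and the dim F2r and Serpinb8 probes over background limits what can be read from them.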
